A study of Xenopus laevis with 22 samples.

Results

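The E2f, Dp and pocket protein family was followed in Xenopus laevis animal caps, pieces of embryonic ectoderm that form epidermis in culture, in which the coregulator Multicilin was switched on. The members were taken by symbol, as any RNA target named e2f1, e2f3, e2f4, e2f5, e2f6, e2f8, tfdp1, tfdp2, rbl1 or rbl2, with every copy kept. Of the 10 symbols, 9 were present in both target sets against which the libraries had been scored, out of 12434 such symbols, and all 9 passed the filter on low counts that left 11118 symbols. They had 17 of the 24383 targets used for 16 of the 18 libraries. The tenth, e2f8, was listed only in the larger target set of 35532 used for the other 2.

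The 18 RNA libraries formed 6 groups, at 3, 6 and 9 h of induction, which match about stages 13, 16 and 18. At each time 3 libraries came from caps with RNA for dominant-negative E2f4 (dnE2f4) together with Multicilin, and 3 from caps with Multicilin alone. In both, Multicilin was a human glucocorticoid receptor fusion (MCIDAS-HGR), injected as RNA and activated with 20 µM dexamethasone at mid-stage 11. Each library pooled 20 caps cut at stage 10. No RNA library without Multicilin was analysed here, so a change with time was not separated from the ageing of the caps. The ChIP groups were E2f4-GFP with induced Multicilin and E2f4-GFP without Multicilin, at 6 h, with about 300 caps each and 2 replicates pooled into 1 peak set. Dexamethasone (20 µM) is given for the ChIP group with Multicilin and not for the one without, so they may differ in it too. The temperature was 22 °C for all groups. The series calls its replicates biological without saying whether they came from separate clutches, so p-values measure the spread between these libraries. In whole caps, fewer cells of a type and less RNA per cell cannot be told apart.

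E2f proteins bind DNA mostly as dimers with a Dp partner. In the vertebrate cell cycle E2f1 and E2f3 activate genes for the G1 to S transition, while E2f4 and E2f5 bring the pocket proteins p107 (Rbl1) and p130 (Rbl2) to the same promoters and repress them, in part as the DREAM complex. E2f6 represses without a pocket protein, and the atypical E2f7 and E2f8 bind without Dp. In multiciliated cells, which have left the cell cycle, E2f4 or E2f5 with Dp1 and Multicilin turns on genes for making many centrioles. The dominant-negative E2f4 is used to block that complex.

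The libraries held 9159519 to 38099850 estimated fragments. Fragments that could be assigned to 1 target alone made up 67.9 to 69.6% in the 16 libraries of the common target set, and 58.3 and 64.4% in the 2 scored on the larger set, replicate 1 of dnE2f4 at 3 h and replicate 3 of dnE2f4 at 9 h. In the 16 libraries the summed counts of 11 epidermal markers were 17700 to 44400 CPM (counts scaled to library size), those of 8 multiciliated-cell markers 3220 to 10700, and those of 7 mesoderm markers 8.78 to 34.9 with myf5 under 1 throughout. Sums were 442 to 1620 CPM for 6 ionocyte markers, 1470 to 13300 for 3 goblet and small secretory markers (98.1 to 99.9% of it otog) and 275 to 641 for 5 endoderm markers. For 6 neural markers they were 1600 to 11100 CPM, of which tubb2b, a tubulin gene not limited to neurons, made 87.9 to 99.3%.

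The e2f4 symbol, which includes the injected RNA, came first because it checks the labels. It stood at 10780, 6625 and 6363 CPM (scaled by TMM, as are all levels of members in CPM) in dnE2f4 caps, replicates 1 to 3, against 28.5, 32.8 and 36.2 CPM in Multicilin caps at 3 h. At 6 h it was 7298, 5009 and 3988 CPM in dnE2f4 caps, against 24.6, 34.3 and 43.3 CPM in Multicilin caps. At 9 h replicates 1 and 3 had 1787 and 1619 CPM in dnE2f4 caps, against 18.6 and 19.4 CPM in Multicilin caps. Replicate 2 at 9 h was opposite to its labels. The library labelled dnE2f4 had 18.0 CPM of e2f4 and the library labelled Multicilin had 1702 CPM. These 2 were left out of the fits as labelled and were not given other labels. In the other 16 libraries, the dnE2f4 libraries were all higher in e2f4 than the Multicilin libraries. The log2 fold change was 7.93 ± 0.35 (SE) at 3 h and 7.32 ± 0.34 at 6 h (edgeR adjusted p = 7.46e-08 and 7.94e-08), and 6.49 ± 0.40 at 9 h. These values include the injected RNA and serve only to check the labels. At 9 h the pair was left out by its e2f4 level, so no p-value is given there. With all 18 libraries as labelled e2f4 did not pass at any of the 3 times.

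The 2 copies of e2f4 shared most of their fragments, which limits what can be said of the frog's own gene. The deposited positions put one at scaffold 15416 (JGIv7b assembly, bases 1879975 to 1902638, minus strand) and the other at scaffold 137809 (bases 774664 to 795182, minus strand). At 3 h the copy on scaffold 15416 averaged 5630 ± 188 CPM in dnE2f4 caps (SD, n = 2), against 18.3 ± 2.99 CPM in Multicilin caps (n = 3). On scaffold 137809 the level was 32.3 ± 3.22 CPM in dnE2f4 caps and 10.2 ± 0.907 CPM in Multicilin caps at the same time. That copy was higher with dnE2f4 from estimated counts (log2 fold change 1.67 ± 0.29, edgeR adjusted p = 0.0417) and not from uniquely assigned counts (-0.44, edgeR adjusted p = 1), and the call was lost without Multicilin replicate 1 or 2 or either dnE2f4 library. Only 0.313% of its alignable fragments were unique to it. In Multicilin caps, where the symbol holds no injected e2f4, its level was 28.5 to 36.2 CPM at 3 h, 24.6 to 43.3 CPM at 6 h and 18.6 and 19.4 CPM at 9 h. The 9 h difference from 6 h was -0.84 ± 0.30 (edgeR adjusted p = 0.0506). It passed with library size alone (-0.98, edgeR adjusted p = 0.0302), with DESeq2 (-0.82, adjusted p = 0.0318), on the common target set (-0.84, edgeR adjusted p = 0.0285), with the compared groups alone and without replicate 1 at 6 h.

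**Figure D1:**
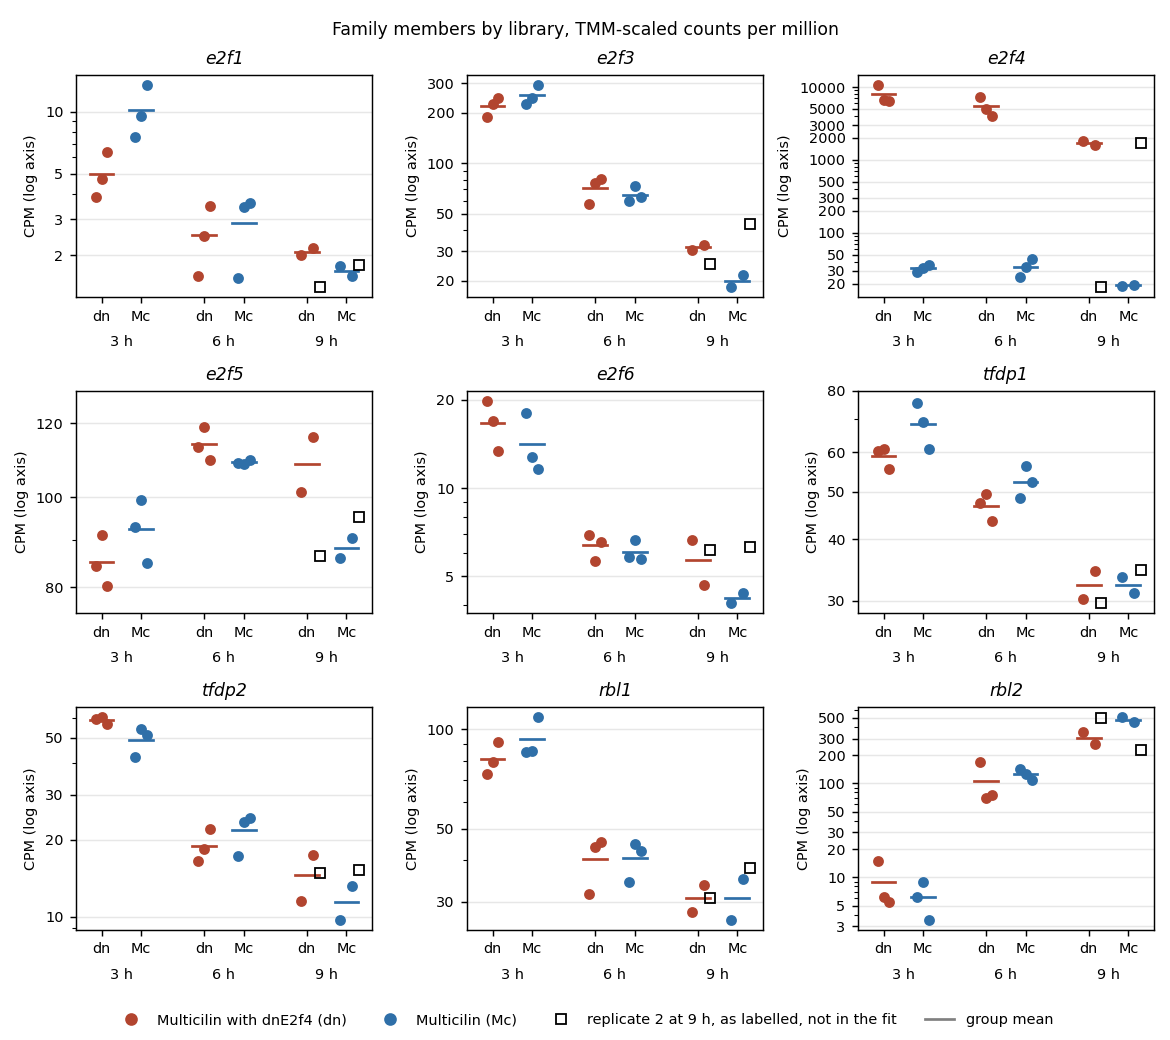
CPM scaled by TMM (log axis) of the 9 measured members in each library, at 3, 6 and 9 h, for Multicilin with dnE2f4 (dn, red) and Multicilin alone (Mc, blue); bars are means of the libraries in the fit, and open squares are the 2 libraries numbered 2 at 9 h. The square labelled Multicilin sits with the red points for e2f4, at 1702 CPM, and the square labelled dnE2f4 with the blue ones, at 18.0 CPM.

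None of the 8 tested members other than e2f4 passed the main test of dnE2f4 against Multicilin, which does not pair libraries. They gave 0 calls at 3, 6 or 9 h (edgeR adjusted p under 0.05), where 0.558%, 3.25% and 4.43% of all 11118 symbols were called. At an unadjusted p under 0.05 there were 1, 0 and 2 members, against 7.79%, 15.5% and 20.2% of symbols. DESeq2 called 0, 0 and 1 members, against 1.66%, 6.9% and 8.81% of symbols. With the replicate number as a block shared by all times, e2f3 passed at 9 h, where 2.49%, 12.2% and 16.4% of symbols passed at 3, 6 and 9 h. A block within each time was added after the data were seen. With it e2f1 passed at 3 h and e2f3 and e2f5 at 9 h, beside 3.6%, 15.2% and 21.7% of symbols. With library size alone e2f3 and e2f5 passed at 9 h, where 6.84% of symbols did. The median log2 fold change of the 8 was -0.16, -0.09 and 0.31 at 3, 6 and 9 h, beside -0.01, 0.02 and 0.06 over all symbols. Standard errors of single members ran from 0.10 for e2f5 to 0.51 for rbl2. Some groups are said below not to overlap, or to lie wholly to 1 side of another. The share of all symbols that did so was not counted, and with 2 or 3 libraries a group this is a description only.

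Among the activator E2fs, e2f1 had 3.86, 4.71 and 6.36 CPM in dnE2f4 caps, against 7.53, 9.59 and 13.6 CPM in Multicilin caps at 3 h. The dnE2f4 libraries lay below all 3 others. The log2 fold change was -1.04 ± 0.35 and did not pass (edgeR adjusted p = 0.329). With the replicate block shared by all times the edgeR adjusted p was 0.0526, and with the block within each time e2f1 passed (-1.03, edgeR adjusted p = 0.00986). At 6 h e2f1 had 1.59, 2.47 and 3.46 CPM in dnE2f4 caps, against 1.55, 3.43 and 3.61 CPM in Multicilin caps, and the groups overlapped (-0.23 ± 0.36). At 9 h it had 2.01 and 2.17 CPM in dnE2f4 caps, against 1.78 and 1.59 CPM in Multicilin caps (0.31 ± 0.45). The difference itself did not pass a test of change between 3 and 9 h (1.35 ± 0.56, edgeR adjusted p = 0.486), and did with the block within each time (edgeR adjusted p = 0.0254).

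The other activator, e2f3, had 30.6 and 32.8 CPM in dnE2f4 caps, against 18.4 and 21.7 CPM in Multicilin caps at 9 h. Both dnE2f4 libraries were higher, with a log2 fold change of 0.66 ± 0.20 (edgeR adjusted p = 0.0757). It passed with the replicate block (0.67, edgeR adjusted p = 0.00505), with DESeq2 (0.63, adjusted p = 0.0472) and with library size as the only scaling (0.85, edgeR adjusted p = 0.0189), and not from uniquely assigned counts (0.24, edgeR adjusted p = 0.767). On the common target set, which leaves 1 dnE2f4 library at 9 h, the value was 0.61. At 3 h e2f3 had 190, 226 and 246 CPM in dnE2f4 caps, against 226, 246 and 295 CPM in Multicilin caps (-0.21 ± 0.16). At 6 h it had 57.4, 76.8 and 80.8 CPM in dnE2f4 caps, against 59.8, 73.1 and 62.8 CPM in Multicilin caps (0.13 ± 0.16). The change of its difference between 3 and 9 h was 0.87 ± 0.25 (edgeR adjusted p = 0.24), and passed with the replicate block (0.88, edgeR adjusted p = 0.0189). In the pair numbered 2 at 9 h, the library labelled dnE2f4 had 25.2 CPM of e2f3 and the library labelled Multicilin had 43.7 CPM.

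E2f5, the closest relative of E2f4, had 101 and 116 CPM in dnE2f4 caps, against 86.0 and 90.3 CPM in Multicilin caps at 9 h. The dnE2f4 libraries were both higher, by 0.30 ± 0.12 on the log2 scale (edgeR adjusted p = 0.184). It passed with the block within each time (0.30, edgeR adjusted p = 0.0401) and with library size alone (0.49, edgeR adjusted p = 0.0469), and the direction turned with uniquely assigned counts (-0.33). On the common target set, which leaves 1 dnE2f4 library at 9 h, e2f5 had 0.20. At 3 and 6 h its differences were -0.12 ± 0.10 and 0.06 ± 0.10. The repressor gene e2f6 differed by 0.24 ± 0.21, 0.07 ± 0.21 and 0.42 ± 0.26 at 3, 6 and 9 h, and the dnE2f4 and Multicilin libraries overlapped at 3 and 6 h.

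Neither Dp gene passed. Differences of tfdp1, the partner found in the Multicilin complex, were -0.22 ± 0.11, -0.16 ± 0.11 and 0.00 ± 0.14 at 3, 6 and 9 h. At 3 h its 60.3, 60.9 and 55.6 CPM in dnE2f4 caps lay below the 75.6, 69.2 and 61.1 CPM in Multicilin caps, without passing the test (edgeR adjusted p = 0.751). The differences of tfdp2 were 0.26 ± 0.19, -0.20 ± 0.19 and 0.34 ± 0.24. At 3 h tfdp2 had 59.3, 60.2 and 56.6 CPM in dnE2f4 caps, against 42.0, 54.3 and 51.3 CPM in Multicilin caps. All dnE2f4 libraries were higher there, without passing the test (edgeR adjusted p = 0.984).

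Of the pocket proteins, rbl1 differed by -0.20 ± 0.18, -0.01 ± 0.18 and 0.00 ± 0.22 at 3, 6 and 9 h. Normal 95% intervals of its log2 fold change reached from -0.55 to 0.15 at 3 h, from -0.36 to 0.34 at 6 h and from -0.43 to 0.43 at 9 h. The differences of rbl2 were 0.51 ± 0.44, -0.27 ± 0.42 and -0.64 ± 0.51. At 3 h rbl2 had 15, 6.24 and 5.51 CPM in dnE2f4 caps, against 6.2, 8.87 and 3.54 CPM in Multicilin caps. The highest of these is the library scored on the larger target set, without which the difference was -0.10. At 9 h rbl2 had 349.7 and 263 CPM in dnE2f4 caps, against 505 and 448 CPM in Multicilin caps. Both dnE2f4 libraries were lower, without passing the test (edgeR adjusted p = 0.527). None of the 8 members passed the test that its dnE2f4 difference changed between 3 and 6 h or between 3 and 9 h, at which 0.018% and 0.117% of symbols passed in edgeR. At an unadjusted p under 0.05 there were 0 and 3 members, against 4.88% and 9.04% of symbols, and DESeq2 called none, against 0.216% and 1.4% of symbols. With the replicate block 3.32% of symbols changed between 3 and 9 h, and with the block within each time 4.97%.

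**Figure D2:**
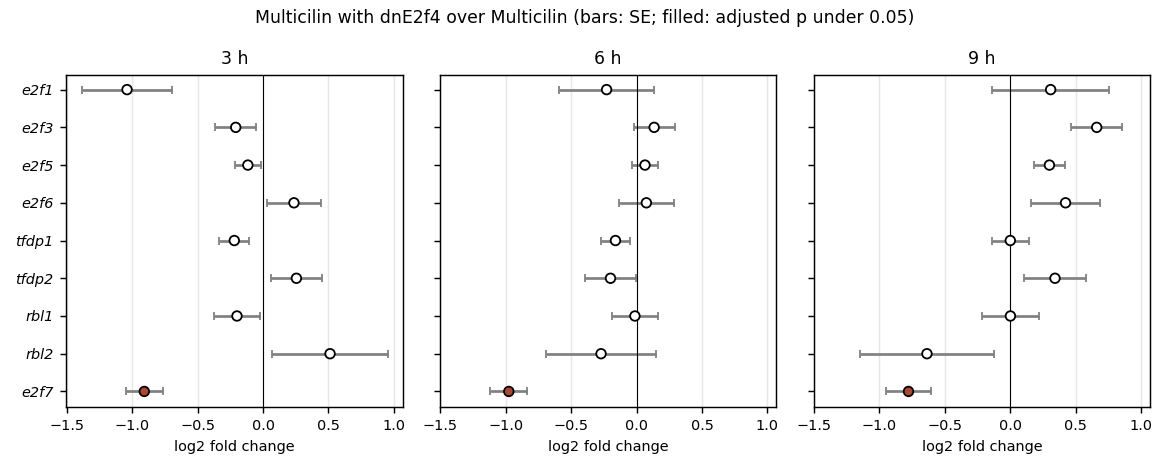
Log2 fold change of Multicilin with dnE2f4 over Multicilin alone at 3, 6 and 9 h (x axis) for 8 members and for e2f7; bars are standard errors and filled points have an edgeR adjusted p under 0.05. Only e2f7 is filled, at -0.91, -0.98 and -0.78, while the members lie between -1.04 and 0.66.

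The atypical E2f gene e2f7, not among the 10 members, was the relative that did fall with dnE2f4. It had 1066, 822 and 1083 CPM in dnE2f4 caps, against 1936, 1757 and 1881 CPM in Multicilin caps at 3 h. At 6 h it had 514, 526 and 610.3 CPM in dnE2f4 caps, against 1068, 981 and 1201 CPM in Multicilin caps, and at 9 h 268 and 223 CPM in dnE2f4 caps, against 463 and 379 CPM in Multicilin caps. Among the libraries of the fit, those with dnE2f4 lay below all Multicilin libraries at each time. The log2 fold change was -0.91 ± 0.14, -0.98 ± 0.14 and -0.78 ± 0.17 (edgeR adjusted p = 0.015, 0.00238 and 0.0237). The calls were lost at all 3 times from uniquely assigned counts (-1.36, -1.0 and -1.39, edgeR adjusted p = 0.493, 0.492 and 0.233). The call at 3 h was also lost without dnE2f4 replicate 2 or Multicilin replicate 1 or 2, and that at 9 h without dnE2f4 replicate 3 or either Multicilin library (-0.89 to -0.65). Both were lost with the compared groups alone (-0.90 and -0.82, edgeR adjusted p = 0.16 and 0.372). At 9 h it was lost too with library size alone (-0.60, edgeR adjusted p = 0.0503) and on the common target set (-0.65, edgeR adjusted p = 0.144). The retinoblastoma gene rb1 is the pocket protein gene outside the members. In the 16 libraries of the fit it was lower in every dnE2f4 library than in any Multicilin library at the same time (-0.51 ± 0.20, -0.46 ± 0.20 and -0.48 ± 0.24). It did not pass (edgeR adjusted p = 0.458, 0.271 and 0.282), although with the replicate block it passed at 6 h (-0.45, edgeR adjusted p = 0.037). In the pair numbered 2 at 9 h, the library labelled dnE2f4 had 331.6 CPM of e2f7 and 38.55 CPM of rb1. The library labelled Multicilin had 140.8 CPM of e2f7 and 26.66 CPM of rb1.

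The tenth member, e2f8, has the same atypical build as e2f7. It had 3872 fragments in replicate 1 of dnE2f4 at 3 h, or 66.0 FPKM (fragments scaled to target length and library size), and 757 fragments in replicate 3 of dnE2f4 at 9 h, or 6.53 FPKM. The target lies on NIGv2 scaffold 2012, bases 186160 to 199014, minus strand. It was not measured in the other 16 libraries, so neither dnE2f4 nor time can be tested.

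Most members changed with the time of induction. In dnE2f4 caps all 8 members passed at 6 h against 3 h, 2 higher and 6 lower, where 26.2% of symbols passed as higher and 24.4% as lower (edgeR). In Multicilin caps 7 passed, 1 higher and 6 lower, against 25.8% and 25.6% of all symbols. From uniquely assigned counts 5 members passed in dnE2f4 caps, where 40% of symbols did. The median log2 fold change of the members was -1.01 in dnE2f4 caps and -1.19 in Multicilin caps, beside 0.03 and 0.00 over all symbols. At 9 h against 6 h, 3 members passed in dnE2f4 caps, 1 higher and 2 lower, with 14.2% and 14.3% of symbols in those directions. In Multicilin caps 4 passed, 1 higher and 3 lower, with 12.6% and 15.7%. With library size as the only scaling the log2 fold changes of all symbols shifted by a median of -0.21 and -0.23 at 6 h against 3 h, in dnE2f4 and Multicilin caps, and by -0.04 and -0.14 at 9 h against 6 h. The dnE2f4 differences at 9 h shifted by 0.19.

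The 2 pocket protein genes went in opposite directions. The transcript of rbl2, whose protein p130 is the pocket protein of resting cells in mammals, had 15, 6.24 and 5.51 CPM at 3 h, 169.9, 69.2 and 75.2 CPM at 6 h, and 349.7 and 263 CPM at 9 h in dnE2f4 caps. In Multicilin caps it had 6.2, 8.87 and 3.54 CPM at 3 h, 144, 127 and 109 CPM at 6 h, and 505 and 448 CPM at 9 h. Every library of a later time was above every library of an earlier time. By 6 h it had risen by 3.55 ± 0.47 in dnE2f4 caps and by 4.33 ± 0.49 in Multicilin caps on the log2 scale, which is 11.7-fold and 20.2-fold (edgeR adjusted p = 4.51e-05 and 1.01e-05). Between 6 and 9 h it rose by a further 1.55 ± 0.46 in dnE2f4 caps and 1.91 ± 0.46 in Multicilin caps (edgeR adjusted p = 0.0251 and 0.00842). The rise from 6 to 9 h in dnE2f4 caps did not pass without replicate 2 or 3 at 6 h, without replicate 1 at 9 h or with the compared groups alone. In the pair numbered 2 at 9 h, rbl2 had 490.4 CPM in the library labelled dnE2f4 and 225 CPM in the library labelled Multicilin.

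All fragments of rbl2 were unique to its only target in the common set (scaffold 33905, bases 1958940 to 2005173, minus strand). No other listed target thus took part in its count, while a copy missing from the set could not be told apart. Over the same times the summed multiciliated-cell markers stood at 3220 and 4170 CPM at 3 h, 6110 to 6490 CPM at 6 h and 8030 CPM at 9 h in dnE2f4 caps. In Multicilin caps they stood at 5280 to 5600 CPM at 3 h, 8060 to 8680 CPM at 6 h and 10400 to 10700 CPM at 9 h. Other marker sums rose there too. The neural sum was 2610 to 3270 CPM at 3 h and 10400 to 11100 CPM at 9 h. The epidermal sum was 19500 to 20900 and 37400 to 39000 CPM at these times. Goblet and endoderm sums were also higher at 9 h, mesoderm sums overlapped, and ionocyte sums were lower (1110 to 1370 and 442 to 471 CPM). Over the 16 libraries of the common set endod1 made 24 to 93.6% of the endoderm sum and atp6v1a 38.4 to 65.9% of the ionocyte sum. In Multicilin caps 1 of 5 endoderm markers was called higher and 2 lower at each step. Of 6 ionocyte markers 3 were called higher at 6 h against 3 h and 2 at 9 h against 6 h, and 0 lower. Over all symbols 25.8% and 12.6% were called higher at these steps, and 25.6% and 15.7% lower. The marker sums leave out the dnE2f4 libraries scored on the larger target set, with 2 left at 3 h and 1 at 9 h. The part of the cell make-up in the rise of rbl2 was not tested.

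Transcripts of rbl1, which encodes p107, had 73.1, 79.5 and 91.2 CPM at 3 h, 31.7, 44.1 and 45.4 CPM at 6 h, and 27.9 and 33.8 CPM at 9 h in dnE2f4 caps. In Multicilin caps they had 85.5, 85.8 and 109 CPM at 3 h, 34.5, 44.8 and 42.8 CPM at 6 h, and 26.5 and 35.1 CPM at 9 h. All libraries of 6 h were below all of 3 h. The log2 fold change from 3 to 6 h was -1.01 ± 0.18 in dnE2f4 caps and -1.20 ± 0.18 in Multicilin caps (edgeR adjusted p = 0.000422 and 0.000101). Between 6 and 9 h it was -0.39 ± 0.20 and -0.40 ± 0.20 and did not pass (edgeR adjusted p = 0.169 and 0.158). It passed with the replicate block (-0.36 and -0.39, edgeR adjusted p = 0.0226 and 0.0154), under which 42.2% and 42.4% of all symbols did.

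Both activators fell. By 6 h e2f1 had fallen by 1.02 ± 0.36 in dnE2f4 caps and by 1.83 ± 0.36 in Multicilin caps on the log2 scale (edgeR adjusted p = 0.0306 and 0.000802), with no overlap between 6 and 3 h. The call in dnE2f4 caps was lost without replicate 2 or 3 at 3 h and without replicate 1 or 2 at 6 h, and from uniquely assigned counts (edgeR adjusted p = 0.0733). Its level at 6 and 9 h was at most 3.61 CPM, and 9 h did not differ from 6 h past the threshold (-0.23 ± 0.40 and -0.77 ± 0.42). For e2f3 the fall went on at both steps. It fell by 1.62 ± 0.16 in dnE2f4 caps and 1.97 ± 0.16 in Multicilin caps from 3 to 6 h (edgeR adjusted p = 2.97e-06 and 5.29e-07), and by 1.17 ± 0.18 and 1.70 ± 0.19 from 6 to 9 h (edgeR adjusted p = 0.000615 and 5.29e-05). Libraries of successive times did not overlap, and e2f3 ended at 30.6 and 32.8 CPM in dnE2f4 caps and 18.4 and 21.7 CPM in Multicilin caps at 9 h.

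The gene of the E2f4 relative, e2f5, did not share that fall. In dnE2f4 caps it had 113, 119 and 109 CPM at 6 h, against 84.4, 91.1 and 80.2 CPM at 3 h, a rise of 0.42 ± 0.10 with no overlap (edgeR adjusted p = 0.00324). In Multicilin caps it had 109, 109 and 109.6 CPM at 6 h, against 92.8, 99.3 and 84.9 CPM at 3 h (0.24 ± 0.10, edgeR adjusted p = 0.0579). That difference passed with the replicate block (0.24, edgeR adjusted p = 0.0192), under which 62.4% of symbols did. With library size alone the values were 0.20 and 0.00 and neither passed (edgeR adjusted p = 0.14 and 0.983), nor did that of dnE2f4 caps from uniquely assigned counts (0.74, edgeR adjusted p = 0.0729). The rise in dnE2f4 caps was thus 0.42 relative to a median of 0.03 over all symbols under TMM, and 0.20 relative to -0.19 under library size. At 9 h against 6 h the values were -0.07 ± 0.11 in dnE2f4 caps and -0.31 ± 0.11 in Multicilin caps (edgeR adjusted p = 0.684 and 0.0557), and that of Multicilin caps passed with the replicate block (-0.27, edgeR adjusted p = 0.0304).

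Transcripts of e2f6 fell by 1.39 ± 0.21 in dnE2f4 caps and 1.23 ± 0.21 in Multicilin caps from 3 to 6 h (edgeR adjusted p = 0.00013 and 0.000309), and no further change passed by 9 h (-0.17 ± 0.24 and -0.52 ± 0.24). Both partner genes fell. At 6 h against 3 h tfdp2 fell by 1.63 ± 0.20 in dnE2f4 caps and 1.18 ± 0.20 in Multicilin caps (edgeR adjusted p = 1.83e-05 and 0.000229), and tfdp1 by 0.33 ± 0.11 and 0.39 ± 0.11 (edgeR adjusted p = 0.027 and 0.0114). The tfdp1 call at this step was lost without any 1 of 4 of the dnE2f4 libraries (replicates 1 and 2 at 3 h, 1 and 3 at 6 h), without Multicilin replicate 1 at 3 h or 6 h, and from uniquely assigned counts. Between 6 and 9 h tfdp1 fell by 0.53 ± 0.13 in dnE2f4 caps and 0.70 ± 0.13 in Multicilin caps (edgeR adjusted p = 0.00851 and 0.00169). Neither call held from uniquely assigned counts (-0.20 and -0.66, edgeR adjusted p = 0.575 and 0.0878), and that of dnE2f4 caps was lost without replicate 1 at 9 h. For tfdp2 the values were -0.38 ± 0.22 in dnE2f4 caps (edgeR adjusted p = 0.213, and 0.0343 from uniquely assigned counts, at -0.80) and -0.93 ± 0.23 in Multicilin caps (edgeR adjusted p = 0.00814), and the call in Multicilin caps was lost without replicate 1 at 9 h. Levels of tfdp1 in dnE2f4 caps were 55.6 to 60.9 CPM at 3 h, 43.6 to 49.4 CPM at 6 h and 30.2 and 34.5 CPM at 9 h. In Multicilin caps they were 61.1 to 75.6 CPM at 3 h, 48.5 to 56.2 CPM at 6 h and 31.1 and 33.6 CPM at 9 h.

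Per length, the order of the 9 measured members changed over the 3 times. The relative e2f7, not a member, had more, at 496, 242 and 85.0 FPKM in Multicilin caps at 3, 6 and 9 h, overlapping rbl2 at 9 h. In dnE2f4 caps e2f7 had 280, 130 and 56.2 FPKM, below e2f5 at 9 h. The member e2f8, listed for 2 libraries only, is left out of the order. In FPKM, summed over copies, Multicilin caps at 3 h had e2f3 (88.2 ± 6.59, SD, n = 3) and e2f5 (85.3 ± 8.20) at the top, with overlapping libraries. Then came tfdp1 (61.5 ± 7.57), tfdp2 (30.2 ± 3.06), rbl1 (23.5 ± 2.95) and e2f4 (22.4 ± 1.84), the last 2 overlapping. At the low end were e2f6 (8.26 ± 2.02), e2f1 (3.72 ± 0.988) and rbl2 (1.33 ± 0.598). At 6 h e2f5 led (84.7 ± 2.07), then tfdp1 (39.5 ± 3.71), with rbl2 (22.5 ± 4.03), e2f4 (20.1 ± 4.83) and e2f3 (18.9 ± 2.81) overlapping below. At 9 h rbl2 was the highest member in Multicilin caps (74.9 ± 9.13 FPKM, n = 2), above e2f5 (60.5 ± 1.09), tfdp1 (22.4 ± 1.55) and e2f4 (9.73 ± 0.018). There rbl1 (6.04 ± 1.13), e2f3 (5.31 ± 0.295) and tfdp2 (5.07 ± 0.718) overlapped in neighbouring pairs, and e2f6 (1.95 ± 0.0815) and e2f1 (0.461 ± 0.0571) were lowest.

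In dnE2f4 caps, where the e2f4 level is that of the injected RNA, e2f3 and e2f5 were again on top at 3 h (78.7 ± 8.24 and 77.3 ± 7.20 FPKM, n = 3, overlapping) and rbl2 and e2f1 at the bottom (1.96 ± 1.21 and 1.84 ± 0.408, overlapping). At 6 h e2f5 had 92.8 ± 4.55 FPKM, above tfdp1 (37.3 ± 2.67), e2f3 (22.3 ± 3.43) and rbl2 (19.6 ± 11.0), of which the last 2 overlapped. At 9 h e2f5 led (77.1 ± 0.053 FPKM, n = 2), followed by rbl2 (51.0 ± 14.7), tfdp1 (23.7 ± 0.279) and e2f3 (8.73 ± 0.246). The same 2 libraries had 101 and 116 CPM of e2f5. Replicate 1 at 3 h and replicate 3 at 9 h of dnE2f4 were scored on the larger target set. There e2f3 and e2f5 each have 4 targets, against 2 in the common set, so these sums are not fully alike.

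**Figure D3:**
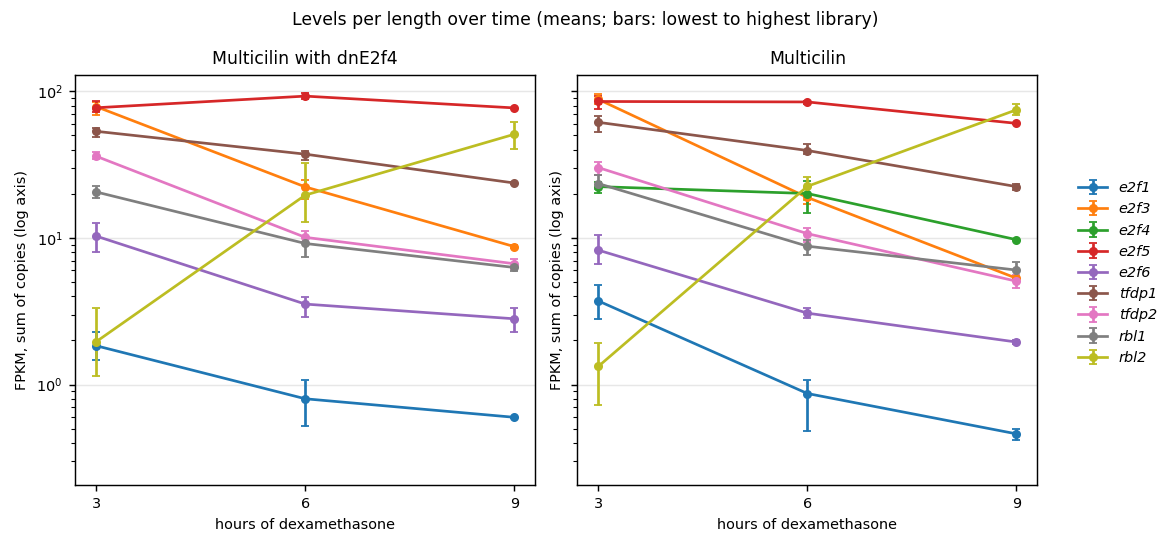
FPKM summed over copies (log axis) against hours of dexamethasone for the members in caps with Multicilin and dnE2f4 (left, without e2f4) and with Multicilin alone (right); points are means of 2 or 3 libraries and bars reach from the lowest to the highest library. The line of rbl2 climbs to 51.0 FPKM at 9 h on the left, below e2f5 at 77.1, and to 74.9 FPKM on the right, above all other members, while e2f3 drops to 8.73 and 5.31. On the left, replicate 1 at 3 h and replicate 3 at 9 h were scored on the larger target set.

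Xenopus laevis keeps pairs of related gene copies, and 8 of the 9 measured symbols had 2 targets in the common set, rbl2 having 1. In 14 libraries, without the 2 on the larger set, 15 targets of members other than e2f4 were tested. None passed for dnE2f4 at 3, 6 or 9 h (edgeR; 0, 1 and 1 at an unadjusted p under 0.05, and DESeq2 0, 1 and 1), where 0.284%, 3.44% and 1.13% of 20043 targets did. The share of all targets at an unadjusted p under 0.05 was not counted, so the unadjusted counts of copies have no base beside them. At 6 h against 3 h 9 of the 15 passed in dnE2f4 caps (2 higher, 7 lower) and 12 in Multicilin caps (2 higher, 10 lower), where 46.1% and 52.1% of all targets passed. At 9 h against 6 h the counts were 4 and 7 of 15, where 19.1% and 28.8% passed, with 1 dnE2f4 library left at 9 h, which is taken to vary like the other groups. With the replicate block, copies of e2f1 (scaffold 318577, -1.13) and rbl1 (scaffold 345631, -0.48) passed at 3 h, 1 of tfdp1 (scaffold 338390, -0.43) at 6 h and 1 of e2f3 (scaffold 11136, 0.79) at 9 h (edgeR adjusted p = 0.0299, 0.0266, 0.0329 and 0.00824). Under that block 3.1%, 15.9% and 10.9% of all targets passed at 3, 6 and 9 h, and 2.01%, 6.94% and 5.32% in DESeq2. The change between 3 and 9 h passed for the same copy of e2f3 with the block (0.99, edgeR adjusted p = 0.0386), as for 0.783% of targets.

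The copies of tfdp1 took opposite signs with dnE2f4 at 6 and 9 h, where their sum had -0.16 ± 0.11 and 0.00 ± 0.14 in the 16 libraries. On scaffold 338390 (bases 1380522 to 1420642, plus strand) the log2 fold change was -0.43 ± 0.14 at 6 h and -0.68 ± 0.22 at 9 h (edgeR adjusted p = 0.14 and 0.183). That copy is the one DESeq2 called at both times (-0.47 and -0.72, adjusted p = 0.0292 and 0.0344). On scaffold 167628 (bases 4885318 to 4912762, plus strand) the values were 0.25 ± 0.19 and 0.43 ± 0.28 (edgeR adjusted p = 0.595 and 0.523). At 9 h these values rest on 1 dnE2f4 library, which had 11.1 CPM on scaffold 338390 and 15.8 CPM on scaffold 167628, against 17.2 and 17.9 CPM and 11.0 and 12.4 CPM in the 2 Multicilin libraries, so that time has no replicate of dnE2f4. The difference between the copies was not tested.

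The copies of rbl1 were followed over time. Its copy on scaffold 71264 (bases 3723344 to 3757043, plus strand) fell by 1.86 ± 0.29 in dnE2f4 caps and by 1.96 ± 0.27 in Multicilin caps from 3 to 6 h (edgeR adjusted p = 0.000236 and 6.96e-05). Its other copy, on scaffold 345631 (bases 740619 to 771964, plus strand), had -0.39 ± 0.18 in dnE2f4 caps (edgeR adjusted p = 0.0999, and 0.0292 with the replicate block, -0.29) and fell by 0.66 ± 0.16 in Multicilin caps (edgeR adjusted p = 0.00495). Of the fragments that fell on only one of the 2 copies, the copy on scaffold 71264 held 25.4 to 39.5% in the 6 libraries of 6 h and 50.5 to 61.7% in the 5 libraries of 3 h. The mean share was 31.1 ± 5.86% at 6 h and 56.0 ± 4.72% at 3 h (SD), lower by 24.9 points at 6 h with no overlap. This was the smallest p that an exact two-sided permutation test over these libraries can give, 0.00433, or 0.0152 adjusted over the 7 genes with 2 copies. That test was chosen after the values had been seen. It pooled dnE2f4 and Multicilin libraries at each time and used no pairing. The rbl1 share was 60.1 and 61.7% in dnE2f4 caps and 50.5 to 54.5% in Multicilin caps at 3 h, and overlapped at 6 h. For the tfdp1 copy on scaffold 167628 the share at 6 h was 34.7 to 39.2% in dnE2f4 caps and 19.8 to 32.8% in Multicilin caps.

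The other gene that passed was e2f6, whose copy on scaffold 93416 (bases 6786108 to 6800877, plus strand) held 8.11 to 17.6% of the unique fragments at 6 h and 3.74 to 5.21% at 3 h (exact permutation p = 0.00433, adjusted 0.0152). That copy averaged 0.51 ± 0.218 CPM in dnE2f4 caps and 0.366 ± 0.0854 CPM in Multicilin caps at 6 h (SD, n = 3 each). Scaffold 149890 carries the other copy, which, at 5.11 ± 0.388 and 5.01 ± 0.506 CPM, held nearly all of the gene's counts, and 8.44% of its alignable fragments were unique to it. It had 17131 alignable fragments in the libraries of the common set, and the copy on scaffold 93416 had 214. Most of the fragments it shared were thus shared with targets outside e2f6, and its level depends on how they were divided. Shares rested on 23 to 348 unique fragments for e2f6 and 195 to 1114 for rbl1, both copies together. The e2f6 copy on scaffold 93416 had only 109 unique fragments over all libraries of the common set. In replicate 3 of dnE2f4 at 6 h it held 17.4% of 23. For e2f5 the copy on scaffold 22127 held 25.2 to 35.3% at 6 h and 32.3 to 40.8% at 3 h (exact permutation p = 0.026, adjusted 0.0606). Shares of the first copy of e2f1, e2f3, tfdp1 and tfdp2 differed by 11.5, -1.59, -2.93 and 2.16 points between 6 and 3 h (exact permutation p = 0.0866, 0.429, 0.472 and 0.316; adjusted 0.152, 0.472, 0.472 and 0.442).

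The copies of e2f5 can be set beside the small rise of its sum. One copy, on scaffold 234771 (bases 1569432 to 1586594, minus strand), rose by 0.59 ± 0.12 in dnE2f4 caps and 0.32 ± 0.11 in Multicilin caps from 3 to 6 h (edgeR adjusted p = 0.00167 and 0.0242). The Multicilin call was lost with library size alone (0.07) and without replicate 3 at 3 h or replicate 1 at 6 h. The other, on scaffold 22127 (bases 1721938 to 1735035, minus strand), had 0.06 ± 0.19 and 0.07 ± 0.17, turning to -0.14 and -0.18 with library size alone. For tfdp1 the copy on scaffold 167628 had -0.32 ± 0.21 in dnE2f4 caps and fell by 0.71 ± 0.19 in Multicilin caps (edgeR adjusted p = 0.221 and 0.00725; in dnE2f4 caps it passed with the replicate block, -0.41, edgeR adjusted p = 0.00878). Its copy on scaffold 338390 had -0.34 ± 0.16 and -0.22 ± 0.14 (edgeR adjusted p = 0.101 and 0.21).

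**Figure D4:**
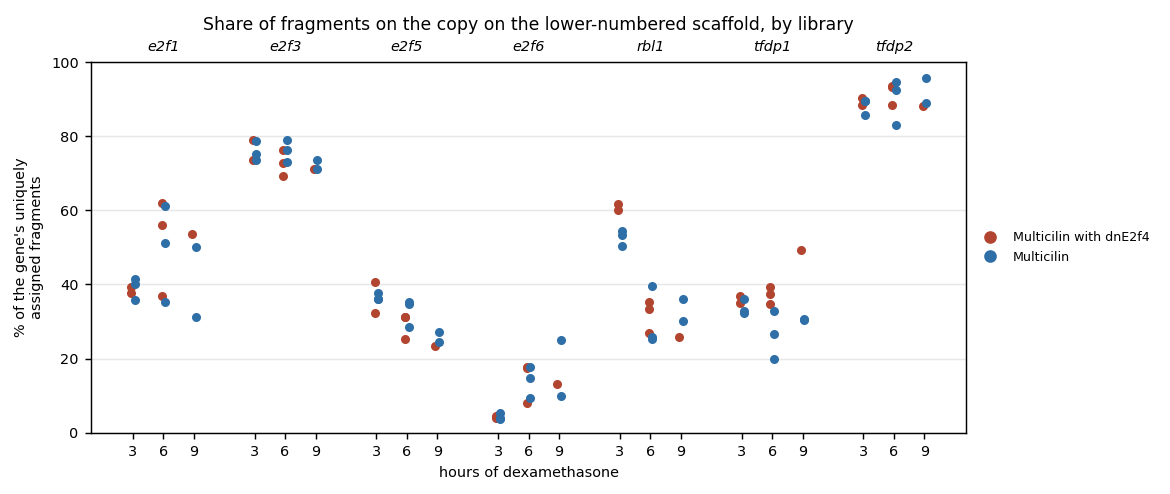
Percent of a gene's uniquely assigned fragments that fell on the copy on its lower-numbered scaffold, at 3, 6 and 9 h, for the 7 genes with 2 copies other than e2f4; each point is a library with Multicilin and dnE2f4 (red) or with Multicilin alone (blue). For rbl1 the points of 6 h, from 25.4 to 39.5%, lie below those of 3 h, from 50.5 to 61.7%.

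E2f4-GFP peaks lay at most starts of the family. The authors' peak sets held 12778 peaks with Multicilin and 15693 without it, from 15313243 and 24997566 tags. A peak centre lay within 1000 bases of 12 of the 17 member starts with Multicilin, where 19.7% of all 24383 starts had one. Without Multicilin it was 14 of 17 starts, where 27.2% of all had one. Of the 17 starts, 12 had a peak in both sets, 2 without Multicilin only and 3 in neither. Over all starts 15.2% had one in both, 12% without Multicilin only and 68.3% in neither. Peaks were also common at the E2f target lists read below. DNA synthesis genes had them at 26 of 36 starts with Multicilin and 30 without it, and licensing genes at 18 and 23 of 28. The G2/M genes had 27 and 38 of 59, and the G1 cyclins and kinases 4 and 5 of 13. With 1 pooled set for each condition and unequal tag totals, the difference between conditions was not tested, and both caps carried injected E2f4-GFP. Dexamethasone is given only for the set with Multicilin, so its part and that of Multicilin cannot be told apart.

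By role, both starts of the activators e2f1 and e2f3, of e2f6, of tfdp1 and of rbl1 had peaks in both sets, within 129 bases of the start except at 1 e2f3 copy. At e2f1 on scaffold 318577 the peak centre was 7 bases upstream with Multicilin and 38 bases upstream without it. At e2f1 on scaffold 71264 it was 79 bases downstream with Multicilin and 53 without it. At e2f6 on scaffold 149890 the centre lay 3 bases upstream with Multicilin and 18 without it. The e2f3 copy on scaffold 11136 had its peak 506 bases downstream with Multicilin and 462 without it, and the other e2f3 copy, on scaffold 133814, 115 bases upstream and 102 bases upstream. The peaks of rbl1 were 57 bases upstream with Multicilin and 6 without it on scaffold 71264, and 129 and 76 bases upstream on scaffold 345631.

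At e2f4, e2f5 and tfdp2 not every start had a peak in both sets, while the only start of rbl2 had one in each. At e2f4 the copy on scaffold 137809 had a peak 206 bases downstream with Multicilin and 234 without it, and the copy on scaffold 15416 had none within 1000 bases in either set. The e2f5 copy on scaffold 234771 had a peak 63 bases upstream without Multicilin, and with Multicilin none within 1000 bases. The copy of tfdp2 on scaffold 16807 likewise had a peak 53 bases upstream without Multicilin and none with it. The other copies of e2f5 (scaffold 22127) and tfdp2 (scaffold 44494) had no peak in either set. At rbl2 the peak lay 85 bases downstream of the start with Multicilin (bases 2004983 to 2005193 of scaffold 33905) and 120 bases upstream without it (bases 2005195 to 2005391). These 2 peaks do not overlap. Of the 12 starts with a peak in both sets it was the only one whose 2 peaks shared no base. Peaks were called at a set width of about 210 bases with Multicilin and 197 without it. The 2 rbl2 peaks nearly touch, at bases 2005193 and 2005195, and whether they are separate sites was not tested. Both e2f7 starts had a peak in each set, 168 and 207 bases downstream with Multicilin and 185 and 219 without it.

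**Figure D5:**
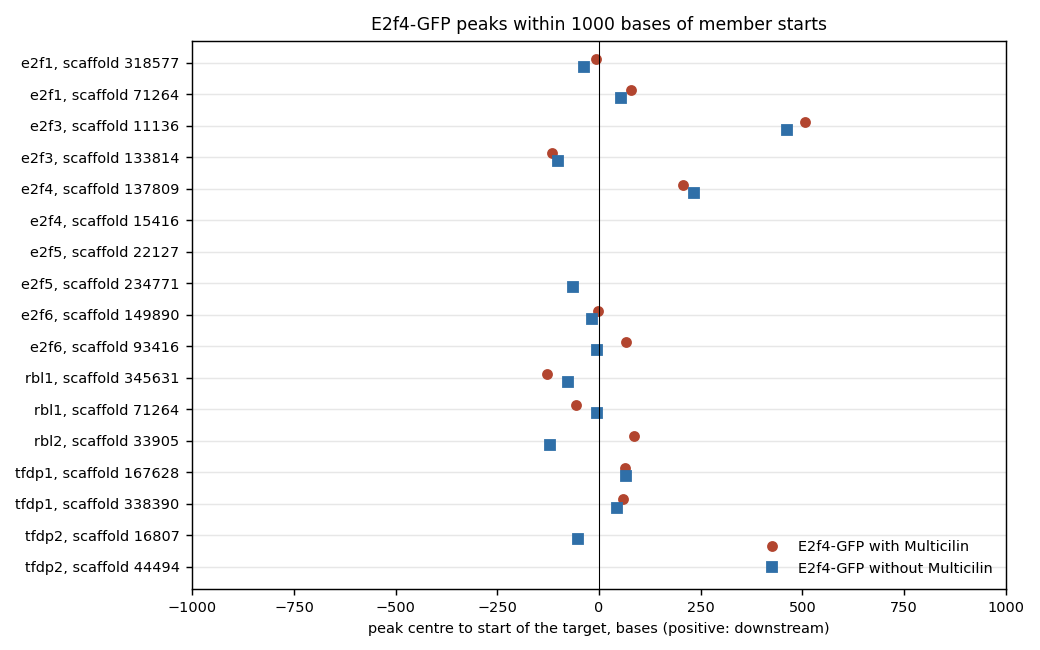
Distance from the start of each member target (y axis) to the centre of the E2f4-GFP peak within 1000 bases of it, in bases with downstream positive (x axis), with Multicilin (red circles) and without (blue squares). All centres except those of 1 e2f3 copy lie within 234 bases of the start, rbl2 has its peak centres at 85 and -120 bases, and 3 starts have none.

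Around the family, lists of its partners and targets were read in the same fits, each chosen with earlier results of these data known. In the MuvB core and DREAM partners 1 of 7 tested symbols was lower with dnE2f4 at 6 h, the histone chaperone gene rbbp4 (-0.90 ± 0.20), and 1 higher at 9 h, the Myb family gene mybl2 (0.79 ± 0.14). Over all symbols 3.25% and 4.43% were called in either direction at 6 and 9 h. At 6 h against 3 h mybl2 fell by 1.30 ± 0.11 in dnE2f4 caps and 1.38 ± 0.11 in Multicilin caps. The MuvB gene lin54 rose by 1.55 ± 0.23 in dnE2f4 caps and 1.88 ± 0.24 in Multicilin caps from 6 to 9 h. The replication inhibitor gene gmnn, a relative of Multicilin, was higher with dnE2f4 at 6 h (0.75 ± 0.18, edgeR adjusted p = 0.0367).

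No G1 cyclin or kinase of 6, no Cdk inhibitor or Skp2 partner of 7 and no replication licensing gene of 17 passed with dnE2f4 at 3, 6 or 9 h. At these times 0.558%, 3.25% and 4.43% of all symbols passed. Of the 17 licensing genes 13 fell and 1 rose in dnE2f4 caps at 6 h against 3 h, and 15 fell and 0 rose in Multicilin caps (medians -1.11 and -1.35). Over all symbols 24.4% fell and 26.2% rose in dnE2f4 caps, and 25.6% fell and 25.8% rose in Multicilin caps (medians 0.03 and 0.00). The cyclin E genes ccne1 and ccne2 led the G1 list, with ccne1 at -2.11 ± 0.15 in dnE2f4 caps and -2.40 ± 0.15 in Multicilin caps. Of 24 DNA synthesis genes 2 were lower with dnE2f4 at 6 h, tyms (-1.20 ± 0.21) and pold3 (-0.93 ± 0.17), and 3 at 9 h, tyms (-1.10 ± 0.25), pold3 (-1.40 ± 0.20) and the thymidine kinase gene tk1 (-2.20 ± 0.51), at 0.121 ± 0.122 CPM in dnE2f4 caps and 0.579 ± 0.0439 CPM in Multicilin caps (SD, n = 2 each). At 6 h against 3 h 19 of the 24 fell in dnE2f4 caps and 20 in Multicilin caps. Of 25 G2/M genes of the DREAM kind none passed with dnE2f4 at 3 or 6 h, and the kinase genes plk1 (-1.62 ± 0.27) and aurka (-1.16 ± 0.24) were lower at 9 h. Over the same step 14 of the 25 fell in each treatment (1 rose in dnE2f4 caps and 3 in Multicilin caps), with the cyclin gene ccna2 at -2.25 ± 0.14 in dnE2f4 caps and -2.73 ± 0.14 in Multicilin caps.

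The symbols whose levels most resembled each member were ranked by Pearson's r of log2 CPM over the 16 libraries, among 10154 symbols. The libraries fall into 3 times and share their scaling, so r is a description. For rbl2 they were usp2 (0.99), c2orf61 (0.99) and fam81b (0.99), and for rbl1 terf2 (0.99), smad4 (0.99) and ndc80 (0.99). For e2f3 they were cbx3, suz12 and asun (0.996, 0.996 and 0.995), for e2f1 orc1, otud1 and cdca7 (0.95, 0.94 and 0.94), and for e2f6 myo1d, acot9 and brdt (0.97 each). The nearest to e2f5 were less alike, slc2a2, slc22a31 and gfpt1 (0.92, 0.92 and 0.89). For tfdp1 they were wdr70, add3 and cpsf2 (0.97 each) and for tfdp2 znf384, rcor2 and poglut1 (0.99, 0.98 and 0.98).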

How the data were processed

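RNA-seq was deposited as eXpress tables, with estimated counts, uniquely assigned counts and FPKM per target made by the authors, per the file headers. Peak lists were deposited as HOMER calls by the authors on replicates 1 and 2 together (per the labels' titles), at a false discovery rate of 0.001 and at least 4-fold over input, per the file headers. The score column the authors deposited holds 1 constant value and was not used. STAR, Bowtie2, Bowtie, eXpress, DESeq and HOMER are named in the submitters' processing notes, without versions. The members and lists were chosen with earlier results of these data known.

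Estimated counts were summed by lower-case symbol over targets named in both sets, rounded, filtered (filterByExpr) and scaled by TMM. The test was edgeR's quasi-likelihood test (version 4.0.16, R 4.3.3) over 16 libraries with a mean per group, and a Benjamini-Hochberg adjusted p under 0.05 was called. DESeq2 1.42.0 was an alternative. Targets without a gene name held 1.70 to 3.93% of fragments and symbols of 1 set 6.42 to 20.3%; neither entered. The rule for named genes was all members and copies, at most 3 called symbols per list and contrast by size of change, and the 3 symbols most like each member. The code was tested on simulated data. No pair of libraries was a duplicate.

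Within 3 h, dnE2f4 and Multicilin libraries of equal number deviated together from their groups (r = 0.324, 0.263 and 0.421), and within 6 h too (0.749, 0.546 and 0.638). The numbers thus appear to pair samples within these times, on the evidence of the data and not of any label. Deviations from a group mean are not independent of each other. At 9 h the 2 pairs left mirror each other (0.327). Mean deviations of equal numbers correlated between 3 and 6 h (0.465, 0.435 and 0.559) and between 6 and 9 h (0.501 and 0.493). Between 3 and 9 h they did not (-0.217 and -0.031), although the shared block spans all times. The main test uses no pairing, so this shared deviation stays in its spread. Blocked values stand beside results whose call they change. Intervals cover the spread between libraries.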

Additional observations from a re-analysis of the deposited data

How the results depend on the processing

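Members called with dnE2f4 (0 of 8 at 3, 6 and 9 h) became 1 at 3 h with the replicate block within each time. At 9 h they became 2 with library size alone (6.84% of all symbols), 1 with DESeq2, 1 with the replicate block and 2 with the block within each time. The change of the difference between 3 and 9 h had 1 member with the block and 2 with the block within each time. At 6 h against 3 h in dnE2f4 caps 5 members were left from uniquely assigned counts (40% of all symbols), and at 9 h against 6 h 1 with the compared groups alone (1 to 3 without 1 replicate). Single copies called with dnE2f4 became 2 at 3 h with the block, 1 at 6 h and 1 at 9 h with DESeq2 or with the block, and 1 for the change between 3 and 9 h with the block. Without 1 replicate, 4 to 6 copies were called at 9 h against 6 h in Multicilin caps. Among the sums by symbol of the 10 members the block changed no call other than those named, and rb1 passed with it at 6 h against 3 h in dnE2f4 caps (-0.33) and Multicilin caps (-0.40). No other count of members was moved by over 1.5 times by any alternative, and the peak counts were 11 of 17 starts with Multicilin and 14 without it in a window of 500 bases.

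Directions turned for values that had not passed, in tfdp1 at 3 h (0.039, uniquely assigned counts), rbl2 at 3 h (-0.11, common target set), rbl1 at 6 h (0.071, library size), and e2f5 (-0.33) and tfdp2 (-0.18) at 9 h from uniquely assigned counts. At 9 h tfdp1 turned to -0.026 with DESeq2, -0.0011 without the filter, -0.0013 with the block within each time, -0.076 with all 18 libraries, -0.099 on the common target set and -0.042 with the compared groups alone. In that order, and with uniquely assigned counts for the block, rbl1 turned to -0.027, -0.0037, -0.17, -0.11, -0.15 and -0.042. Other turns were e2f4 at 6 h against 3 h in Multicilin caps (-0.17, library size), e2f6 at 9 h against 6 h in dnE2f4 caps (0.054, common target set), e2f4 at 9 h against 6 h in Multicilin caps (4.09, all 18 libraries as labelled), and the e2f5 copy on scaffold 22127 (-0.14 and -0.18 in dnE2f4 and Multicilin caps, library size). The called e2f4 copy on scaffold 137809 turned to -0.44 at 3 h and -0.83 at 6 h from uniquely assigned counts.

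Without 1 replicate, ranges that crossed 0 were -0.096 to 0.857 for rbl2 at 3 h, -0.54 to 0.029 for e2f1 and -0.13 to 0.136 for rbl1 at 6 h, and -0.096 to 0.079 for tfdp1 and -0.21 to 0.253 for rbl1 at 9 h, all with dnE2f4. For e2f4 at 6 h against 3 h in Multicilin caps the range was -0.14 to 0.266. At 9 h against 6 h in dnE2f4 caps it was -0.49 to 0.043 for e2f1, -0.17 to 0.023 for e2f5 and -0.45 to 0.058 for e2f6, and for the e2f5 copy on scaffold 22127 at 6 h against 3 h -0.13 to 0.353.

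Calls over all symbols with dnE2f4 at 3, 6 and 9 h were 62, 361 and 493. They were 185, 767 and 979 with DESeq2, 277, 1352 and 1827 with the replicate block, 400, 1695 and 2412 with the block within each time, 15, 142 and 187 from uniquely assigned counts, and 1, 0 and 0 with all 18 libraries as labelled. The causes were not tested.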
